A study of Mus musculus with 12 samples.

Results

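The 48 cell cycle genes described here were taken by symbol from a table of read counts for 55401 genes in the left ventricle of mice, and all 48 were among the 15764 genes with enough counts to test. They fall into 13 genes of the G1 phase (cyclins, their kinases, the transcription factor E2f1 and kinase inhibitors), 10 genes of DNA replication, 24 genes of mitosis and, set apart, Cenpf. The 12 libraries form 4 groups of 3: wild type (WT) mice and Prkca T497A mice, each after sham surgery or after transverse aortic constriction (TAC). Prkca codes for protein kinase C alpha, and T497A replaces a threonine of its activation loop with alanine. TAC narrows the aorta so that the left ventricle pumps against a raised pressure. All mice were operated on when 10 weeks old, with the constriction set by a 27-gauge needle, and were 15 weeks old when tissue was taken 5 weeks later. All 12 libraries carry the same batch date. Each title holds a number that differs between all 12 libraries, and the labels do not give its meaning. They do not state whether the libraries of a group came from different animals. The p-values here therefore rest on the spread between libraries, which may be technical.

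A cell that enters division makes D-type cyclins, which with CDK4 and CDK6 inactivate the retinoblastoma protein and free E2F factors, and cyclin E with CDK2 then carries it into DNA replication. Genes of replication rise at the start of S phase, and genes of mitosis, from cyclin B and CDK1 to spindle and kinetochore proteins, are made mostly in G2. Adult heart muscle cells rarely divide, while fibroblasts, endothelial cells and macrophages of the heart can divide under load, and RNA of the whole tissue does not tell which cell made a transcript. In such bulk samples fewer cells of a type and less RNA per cell cannot be told apart.

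Totals ran from 36862004 to 46898344 counts per library. Levels are given as CPM, counts relative to library size and scaled with TMM factors, which set libraries to a common size through genes that differ little. Counts per gene do not show the substitution and so do not check the genotype labels. Cardiomyocyte is given as the cell type in the labels, but no sorting step is described, and all 10 markers each of cardiomyocytes, fibroblasts, endothelium, macrophages, and smooth muscle and pericytes were above 0 in every library. Of 10 lymphocyte markers, Cd3d, Cd3e and Cd8a were at 0 in at least 1 library. The share of mitochondrial counts was 19.6% to 20.9% in WT TAC and 25.1% to 29.0% in WT sham. It was 24.6% to 26.1% in T497A TAC, without overlap with WT TAC, and 28.3% to 30.9% in T497A sham. With the mitochondrial genes left out, the members called in each comparison numbered the same as with them.

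After TAC in WT, 27 of the 48 genes rose and 3 fell, by edgeR's quasi-likelihood test at a Benjamini-Hochberg adjusted p under 0.05, adjusted over the whole table. Of all 15764 tested genes, 25.0% were called in this comparison, 12.3% higher and 12.6% lower. The median log2 fold change of the 48 was 0.90, against 0.01 over all tested genes. The 27 rises comprised 3 genes of G1, 5 of replication and 19 of mitosis, and the 3 falls were those of Cdkn1b, Cdkn1c and Cenpf. The number called was 19, 18 and 17 without WT sham replicates 1, 2 and 3, and 18 without WT TAC replicate 2. In WT TAC, 14 of the 30 called genes were called in all 12 fits that left out 1 library and under all 6 other alternatives: Cdkn1a, Cdkn1b and E2f1 of G1, Mcm6 and Rrm2 of replication, Anln, Aurka, Ccnb1, Cdk1, Kif20a, Prc1, Tpx2 and Ube2c of mitosis, and Cenpf.

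**Figure D1:**
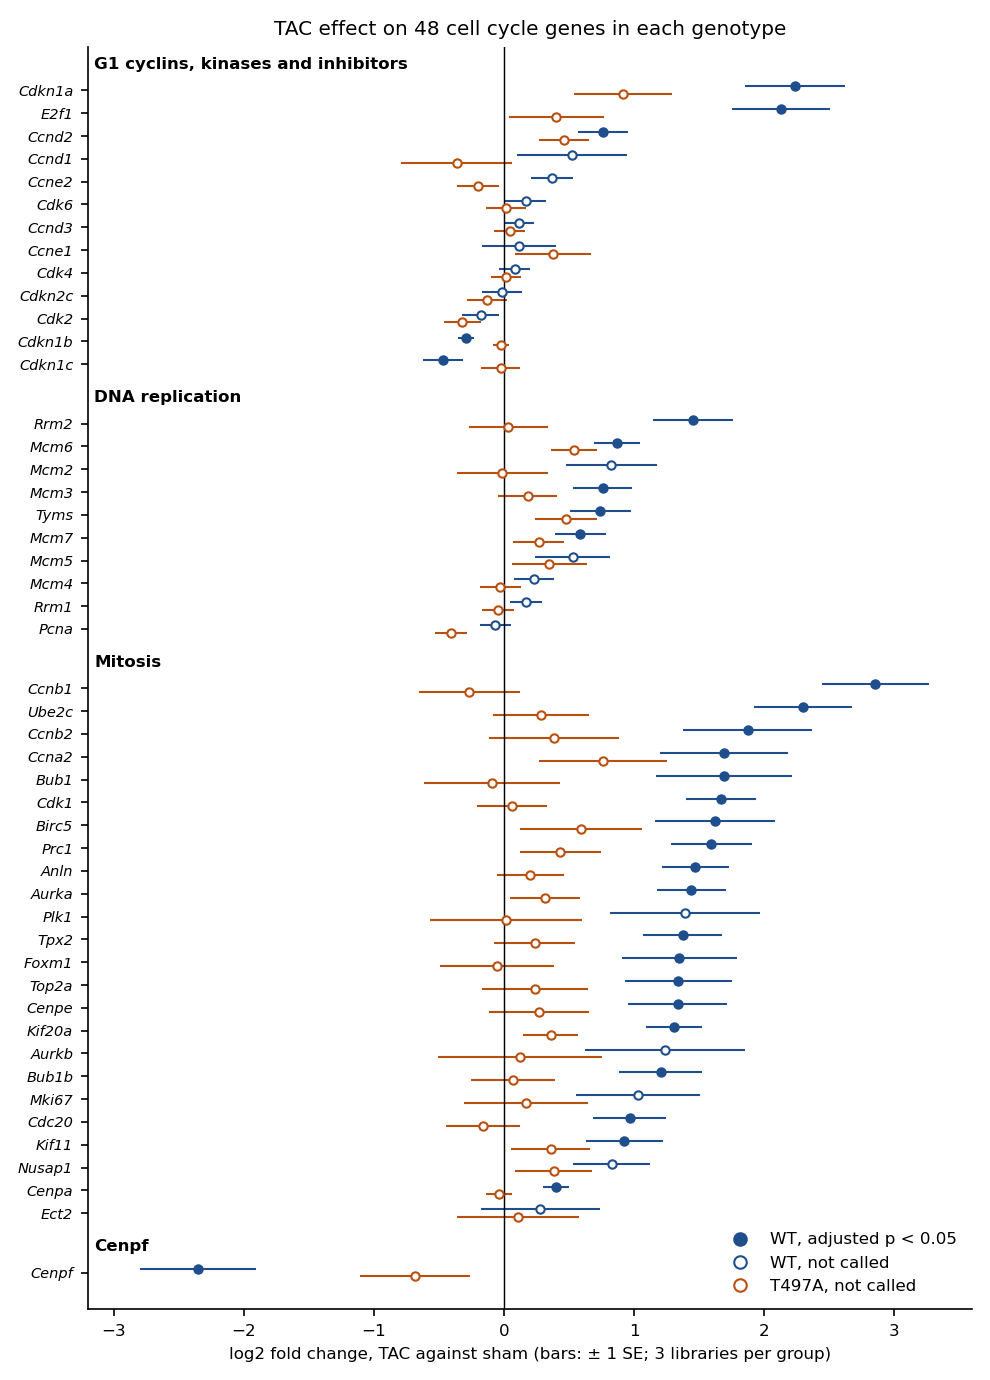
The log2 fold change after TAC is shown for each of the 48 genes in WT (blue) and T497A (orange), ordered within phase, with bars of 1 SE and filled points where the adjusted p was under 0.05. In WT 30 points are filled, in T497A none, and all 24 mitosis genes lie above 0 in WT while Cenpf lies at -2.35.

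Markers of other cell types moved with TAC in WT. The summed level of 10 fibroblast markers went from 2038 to 2177 CPM in WT sham to between 4113 and 4605 CPM in WT TAC, and 6 of the 10 rose. The summed level of 10 macrophage markers lay between 202 and 237 CPM in WT sham and between 324 and 410 CPM in WT TAC, and 8 of the 10 rose. Of 10 cardiomyocyte markers 7 fell, from a sum of 59546 to 71246 CPM to a sum of 42673 to 52327 CPM. Endothelial markers summed to between 959 and 1075 CPM in WT sham and between 955 and 1089 CPM in WT TAC. Smooth muscle and pericyte markers summed to between 1608 and 1795 CPM in WT sham and between 1259 and 1395 CPM in WT TAC, and 1 of the 10 rose and 1 fell. Erythroid markers summed to between 118 and 177 CPM in WT sham and between 209 and 299 CPM in WT TAC, and 4 of the 6 tested rose. Lymphocyte markers summed to at most 2.86 CPM in WT sham and 4.08 CPM in WT TAC. The part of these cell types in the results on cell cycle genes was not tested.

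Among the G1 genes after TAC in WT, the transcription factor E2f1, 1 of 3 D-type cyclins and the inhibitor p21 rose, and the inhibitors p27 and p57 fell. Over the 13 genes the median log2 fold change was 0.12, and 8 did not pass the test. Cdkn1a, which codes for p21, a p53 target that blocks cyclin-CDK complexes, had 10.0, 10.2 and 4.27 CPM in the 3 WT sham libraries and 25.8, 43.3 and 47.1 CPM in WT TAC. Every WT TAC library was above every WT sham library, and the rise was 4.72-fold (log2 fold change 2.24 ± 0.39 SE, edgeR adjusted p 0.00281). E2f1, which switches on replication genes, had 0.646, 0.357 and 0.871 CPM in WT sham and 1.84, 2.93 and 3.38 CPM in WT TAC. Its 4.38-fold rise (2.13 ± 0.38, edgeR adjusted p 0.0011) was again without overlap between the groups.

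The D-type cyclins moved unequally in WT TAC. Ccnd2, the most abundant of the 48 genes per kb of exon, had 265, 165 and 212 CPM in WT sham and 285, 414 and 387 CPM in WT TAC, a 1.69-fold rise (0.76 ± 0.19, edgeR adjusted p 0.0155). The groups did not overlap, though WT TAC replicate 1 lay close to WT sham replicate 1, and the adjusted p reached 0.0572 without WT TAC replicate 3. Without WT sham replicate 3 or WT TAC replicate 2 the Ccnd2 call was lost as well, and so it was in a fit on the 6 WT libraries alone (edgeR adjusted p 0.0505). Ccnd1 had 36.7, 36.5 and 46.0 CPM in WT sham and 57.3, 44.1 and 69.9 CPM in WT TAC (0.52 ± 0.42, edgeR adjusted p 0.419), and its groups overlapped. Exons of Ccnd1 overlap LTO1 on the other strand, so its counts are uncertain. Ccnd3 had 30.3, 26.1 and 24.1 CPM against 26.9, 29.4 and 30.9 CPM (0.12 ± 0.12, edgeR adjusted p 0.521). Per kb of exon, Ccnd2 made up 65.9% ± 4.9 (SD, n = 3) of the summed level of the 3 D-type cyclins in WT sham and 71.1% ± 5.8 (SD, n = 3) in WT TAC, and the ranges of 1 SD overlap. The E-type cyclins that pair with CDK2 were much lower. Ccne1 stood at 1.06 to 1.39 CPM in WT sham and 1.26 to 1.43 CPM in WT TAC, and Ccne2 at 3.07 to 3.89 and 3.97 to 5.34 CPM (0.37 ± 0.16, edgeR adjusted p 0.116). The kinase genes Cdk2, Cdk4 and Cdk6 had log2 fold changes of -0.18, 0.08 and 0.17 and did not pass the test. Ccne2 and Cdk4 share exon sequence with Ints8 and Tspan31 on the other strand, so their counts are uncertain as well.

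The 2 inhibitors related to p21 in sequence went the other way in WT TAC. Cdkn1b, coding for p27, which holds CDK2 inactive in resting cells, had 47.9, 45.7 and 49.0 CPM in WT sham and 38.8, 37.7 and 39.8 CPM in WT TAC. Its fall was small, 1.22-fold (-0.29 ± 0.06, edgeR adjusted p 0.00417), but its libraries varied little and the groups did not overlap. Cdkn1c, coding for p57, had 10.3, 8.78 and 9.24 CPM in WT sham and 5.68, 8.59 and 6.22 CPM in WT TAC, a 1.38-fold fall (-0.47 ± 0.15, edgeR adjusted p 0.0388). Without WT TAC replicate 1 the adjusted p of Cdkn1c was 0.154, and it also lost its call without any 1 of WT sham replicates 1, 2 and 3, WT TAC replicate 3 and T497A sham replicate 3, and in the fit on the 6 WT libraries alone (edgeR adjusted p 0.0649). Exons of Cdkn1c overlap an antisense gene that had no counts. Cdkn2c, an inhibitor of CDK4 and CDK6 from another family, had a log2 fold change of -0.01 ± 0.15.

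**Figure D2:**
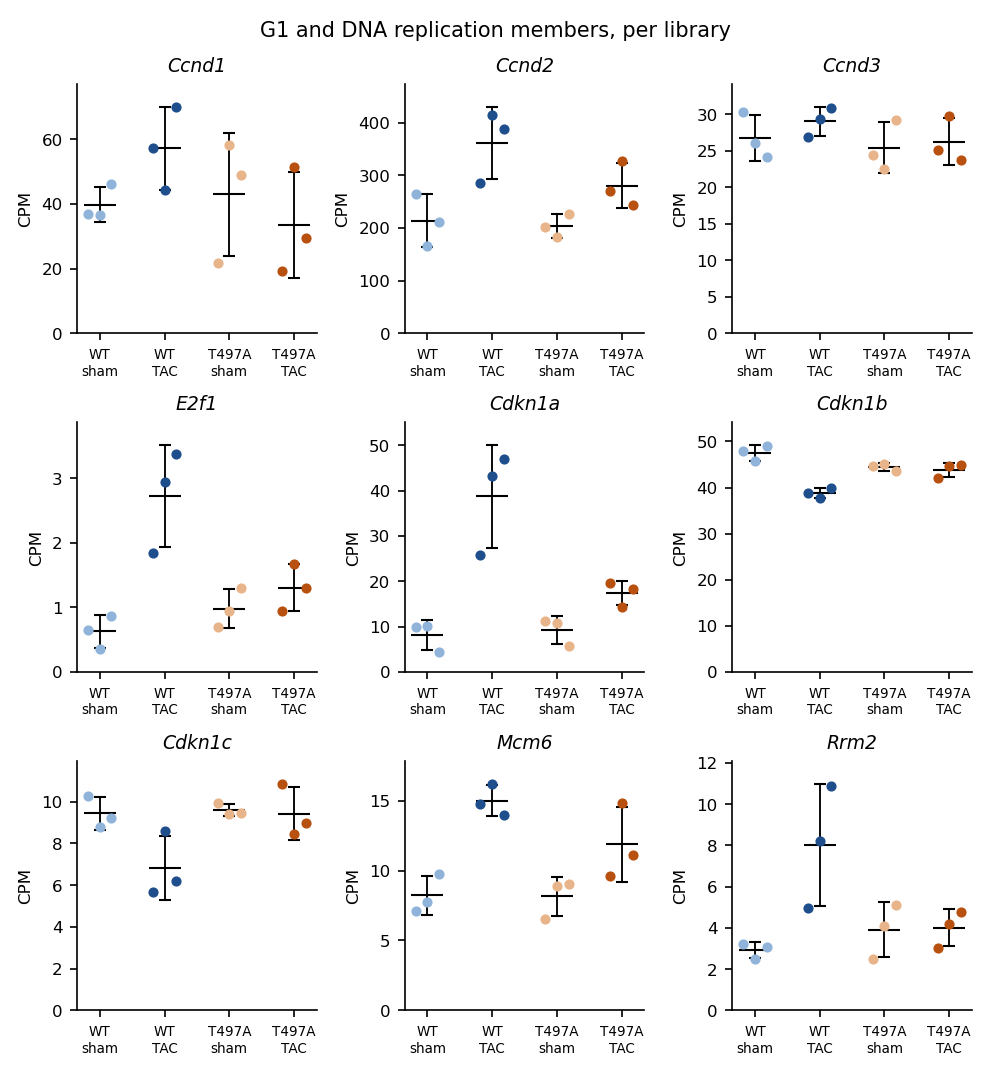
CPM per library is shown for 7 G1 genes and 2 replication genes in the 4 groups of 3 libraries, with the mean and SD in black and each axis starting at 0. Cdkn1a, E2f1, Mcm6 and Rrm2 lie higher in all 3 WT TAC libraries than in any WT sham library, Cdkn1b lies lower, and Ccnd1 and Ccnd3 overlap.

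Of the 10 replication genes, 5 rose in WT TAC, with a median log2 fold change over the 10 of 0.66. Rrm2, the S-phase subunit of ribonucleotide reductase, which makes deoxynucleotides, had 3.23, 2.5 and 3.05 CPM in WT sham and 4.95, 8.22 and 10.9 CPM in WT TAC, a 2.74-fold rise (1.45 ± 0.31, edgeR adjusted p 0.00413). Its partner subunit Rrm1, which is less tied to S phase, stood at 16.0 to 18.3 CPM in WT sham and 16.9 to 20.9 CPM in WT TAC (0.17 ± 0.12, edgeR adjusted p 0.352).

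The 6 Mcm genes code for the subunits of the ring-shaped helicase that opens DNA, and 3 of them rose in WT TAC. Mcm6 had 7.13, 7.78 and 9.76 CPM in WT sham and 14.8, 16.2 and 14.0 CPM in WT TAC (1.83-fold, 0.87 ± 0.17, edgeR adjusted p 0.00257). Mcm3 had 4.52, 4.60 and 4.70 CPM against 5.96, 8.85 and 8.60 CPM (1.69-fold, edgeR adjusted p 0.0258). Mcm7 had 6.51, 5.52 and 6.42 CPM against 8.37, 11.3 and 8.04 CPM (1.5-fold, edgeR adjusted p 0.0408), and its exons overlap Ap4m1 and Cops6 on the other strand, so its counts are uncertain. All 3 were without overlap between WT sham and WT TAC. Mcm2, at 8.06, 4.20 and 5.00 CPM in WT sham and 5.65, 14.5 and 10.5 CPM in WT TAC, overlapped and was not called (0.83 ± 0.35, edgeR adjusted p 0.117). Mcm5 (0.53 ± 0.29) and Mcm4 (0.23 ± 0.16) did not pass the test either, though Mcm5 did in a fit on the 6 WT libraries alone (edgeR adjusted p 0.0404). Tyms, thymidylate synthase, had 1.41, 1.43 and 1.71 CPM in WT sham and 2.45, 2.47 and 2.68 CPM in WT TAC, a 1.67-fold rise (edgeR adjusted p 0.0347). A stretch of 355 bp is 97.7% identical to Reep3, which had 31699 counts in all, so the Tyms counts are uncertain. Leaving out 1 library raised the adjusted p to at most 0.0906 for Mcm3 (without WT TAC replicate 3), 0.166 for Mcm7 (without WT TAC replicate 2) and 0.108 for Tyms (without WT sham replicate 1), each of which lost its call in at least 5 of the 12 such fits.

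Pcna, the sliding clamp of the replication fork, was not called in WT TAC, at 17.9 to 20.0 CPM in WT sham and 16.2 to 19.7 CPM in WT TAC (-0.07 ± 0.12, edgeR adjusted p 0.737). A processed pseudogene, Pcna-ps2, is 99.2% identical to Pcna over 781 bp. It had 91 counts in WT TAC replicate 1, 81 in T497A TAC replicate 1 and 88 in T497A TAC replicate 3, and 1 to 8 counts in each of the other 9 libraries. Those 3 libraries were also the 3 with the lowest Pcna level, so the Pcna values are uncertain.

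Mitosis genes rose together in WT TAC. Of the 24, 19 rose, none fell, all 24 had a log2 fold change above 0, and the median was 1.36. In 23 of the 24 every WT TAC library was above every WT sham library, as were 21.5% of all tested genes. The summed level of the 24 was 58.3 to 61.8 CPM in WT sham and 118 to 131 CPM in WT TAC.

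The largest rise of the 48 genes in WT TAC was that of Ccnb1, coding for cyclin B1, which activates CDK1 at the entry to mitosis. Ccnb1 had 14, 6 and 10 counts in WT sham (0.323, 0.134 and 0.290 CPM) and 72, 80 and 86 counts in WT TAC (1.58, 1.85 and 2.00 CPM). This was a 7.24-fold rise (2.86 ± 0.41, edgeR adjusted p 0.00028), from the lowest level per kb of exon of all 48 genes in WT sham. Processed pseudogenes of Ccnb1, up to 99.2% identical, held few counts: 2 in all for Ccnb1-ps, 12 for Gm8416 and 0 for Gm12856. Ccnb2, cyclin B2, had 0.277, 0.536 and 0.581 CPM in WT sham and 1.49, 1.94 and 1.68 CPM in WT TAC (3.67-fold, edgeR adjusted p 0.0135). Ccna2, cyclin A2, which acts in S phase and G2, had 1.15, 1.74 and 1.71 CPM in WT sham and 4.91, 4.76 and 5.22 CPM in WT TAC (3.23-fold, edgeR adjusted p 0.0269). Its exons overlap Exosc9 on the other strand.

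The kinase that these cyclins activate rose with them in WT TAC. Cdk1 had 0.970, 1.03 and 1.22 CPM in WT sham and 3.09, 3.79 and 3.36 CPM in WT TAC, a 3.18-fold rise (1.67 ± 0.27, edgeR adjusted p 0.000616). Ube2c, the ubiquitin-conjugating enzyme of the anaphase-promoting complex, which ends mitosis by marking cyclin B for breakdown, had 0.646, 0.715 and 0.639 CPM in WT sham and 2.76, 4.25 and 2.89 CPM in WT TAC (4.93-fold, 2.3 ± 0.38, edgeR adjusted p 0.000692). Its exons overlap those of Tnnc2 on the other strand, which had 5 counts in all 12 libraries. Bub1, a kinase of the spindle checkpoint, had 0.693, 0.134 and 0.581 CPM in WT sham and 1.49, 1.52 and 1.51 CPM in WT TAC (3.23-fold, edgeR adjusted p 0.0303). In all 3 genes the lowest WT TAC library stood above the highest WT sham library.

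The other 13 mitosis genes called in WT TAC rose between 1.32-fold (Cenpa, the histone of centromeres) and 3.08-fold (Birc5, survivin of the chromosomal passenger complex). They include the spindle genes Tpx2, Prc1, Kif11, Kif20a and Cenpe, the cytokinesis gene Anln, the kinase Aurka, the checkpoint genes Bub1b and Cdc20, the transcription factor Foxm1 and Top2a, which untangles chromosomes. Counts of Kif20a and Prc1 are uncertain because their exons overlap Cdc23 and Rccd1 on the other strand. Of the mitosis genes, 11 lost the call when at least 1 library was left out, with adjusted p up to 0.137 for Foxm1 (without WT sham replicate 1), 0.113 for Top2a (without WT sham replicate 1), 0.101 for Ccna2 (without WT sham replicate 1), 0.0813 for Bub1 (without WT sham replicate 2) and 0.0601 for Ccnb2 (without WT sham replicate 1). The other 6 of the 11 were Birc5, Bub1b, Cdc20, Cenpa, Cenpe and Kif11, with at most 0.11. Mki67, the proliferation antigen Ki-67, had 10.0, 10.2 and 9.93 CPM in WT sham and 20.4, 21.8 and 19.4 CPM in WT TAC. Its groups were far apart in WT, yet it was not called by the model over all 12 libraries (1.03 ± 0.48, edgeR adjusted p 0.154). That model shares 1 estimate of the spread, and Mki67 ran from 3.70 to 19.5 CPM within T497A TAC. Fitted on the 6 WT libraries alone, Mki67 was called (1.03 ± 0.09, edgeR adjusted p 0.000104). Plk1 (1.39 ± 0.58), Aurkb (1.24 ± 0.61) and Nusap1 (0.83 ± 0.30) were likewise without overlap, with adjusted p of 0.0953, 0.164 and 0.0561 over 12 libraries and 0.044, 0.024 and 0.0143 over the 6. Ect2, at 0.693 to 1.51 CPM in WT sham and 0.746 to 1.71 CPM in WT TAC, overlapped (0.28 ± 0.46).

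Cenpf went against the other mitosis genes. It codes for a very large coiled-coil protein that is made in G2 and binds the outer kinetochore and microtubules, and it lies on chromosome 1, positions 189640606 to 189688086 of GRCm38, on the minus strand, with no exon of another gene over its own. Cenpf had 68.8, 53.8 and 121 CPM in WT sham and 9.89, 20.7 and 17.1 CPM in WT TAC. The highest WT TAC library was below the lowest WT sham library, and the fall was 5.10-fold (-2.35 ± 0.45, edgeR adjusted p 0.00551). These values rest on 2410 to 4165 counts per WT sham library and 451 to 896 per WT TAC library. Under all 18 alternatives Cenpf stayed called, with log2 fold changes between -2.59 and -1.95 and adjusted p of at most 0.024.

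In WT sham Cenpf was also far above the median mitosis gene in level. Per kb of exon it stood at 5.26 CPM in WT sham, rank 6 of the 48 genes, and at 1.03 CPM in WT TAC, rank 29. Its level per kb was 13.8 to 28.1 times the median of the 24 mitosis genes within each WT sham library, and 1.01 to 1.70 times within each WT TAC library. In T497A sham these ratios were 16.2 to 32.8, and in T497A TAC 12.3, 6.46 and 18.4. The exons of all annotated Cenpf transcripts add to 15433 bp, and a shorter transcript would make its level per kb higher. In WT TAC, 12, 5 and 8 of the 24 mitosis genes were above Cenpf per kb, against 0, 1 and 0 in WT sham.

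**Figure D3:**
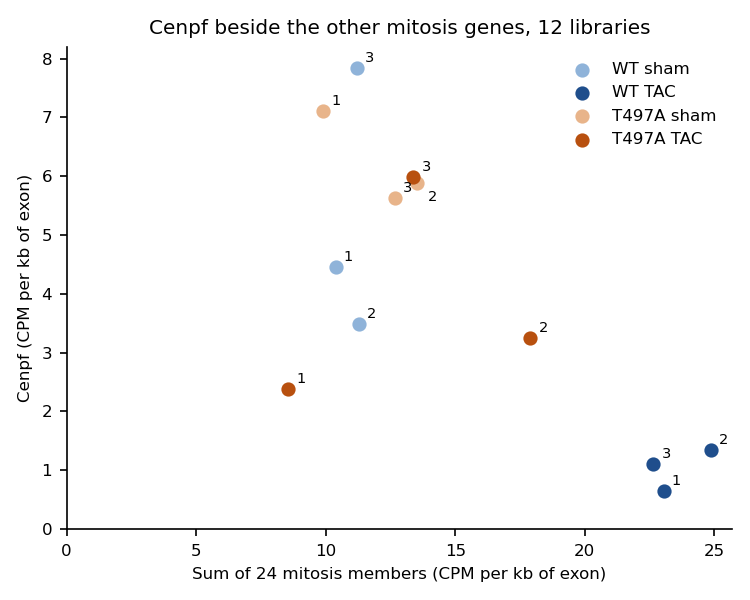
Each of 12 points is a library (numbers are replicates), with the summed level of the 24 mitosis genes on the horizontal axis and Cenpf on the vertical axis, both in CPM per kb of exon. The 3 WT TAC libraries lie at the lower right, between 22.6 and 24.9 for the sum and between 0.641 and 1.34 for Cenpf, apart from the other 9.

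Promoters are shown for the genes called between the genotypes after TAC, as a description of their sequence. The part of these sequences in the results was not tested. RefSeq promoters (GRCm38.p6, from 250 bases before to 50 bases after a start) matched 38 of the 48 genes by symbol, and Tpx2 was not among them. Both strands were searched for TTTGAA, the core of the cell cycle genes homology region (CHR) of late cell cycle promoters, for CCAAT, the box that NF-Y binds, and for the E2F motifs TTTCCCGC, TTTCGCGC, TTTGGCGC and TTTGCCGC, and matches of different motifs may overlap. Each stretch below starts 150 bases before the start site, is written along the gene's strand, and has matches in capitals.
Ccnb1 (chr13:100786487-100786636, minus strand): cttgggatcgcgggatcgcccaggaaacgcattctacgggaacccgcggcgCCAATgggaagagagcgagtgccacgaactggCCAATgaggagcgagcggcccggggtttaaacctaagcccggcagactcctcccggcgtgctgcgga
Cdk1 (chr10:69352913-69353062, minus strand): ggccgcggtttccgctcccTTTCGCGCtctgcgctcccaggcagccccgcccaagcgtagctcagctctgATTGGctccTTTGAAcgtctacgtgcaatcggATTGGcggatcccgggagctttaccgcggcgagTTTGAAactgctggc
Aurka (chr2:172370571-172370720, minus strand): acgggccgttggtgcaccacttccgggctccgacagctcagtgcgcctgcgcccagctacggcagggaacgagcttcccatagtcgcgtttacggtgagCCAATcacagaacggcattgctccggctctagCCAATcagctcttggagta
Cdc20 (chr4:118437344-118437493, minus strand): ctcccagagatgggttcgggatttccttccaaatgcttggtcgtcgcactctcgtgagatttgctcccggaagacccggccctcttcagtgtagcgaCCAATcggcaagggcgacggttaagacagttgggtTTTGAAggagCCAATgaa
Ube2c (chr2:164769779-164769928, plus strand): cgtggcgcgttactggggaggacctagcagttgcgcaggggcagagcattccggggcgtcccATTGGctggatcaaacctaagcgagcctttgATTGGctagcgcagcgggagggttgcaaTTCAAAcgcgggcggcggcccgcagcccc
Prc1 (chr7:80294301-80294451, plus strand): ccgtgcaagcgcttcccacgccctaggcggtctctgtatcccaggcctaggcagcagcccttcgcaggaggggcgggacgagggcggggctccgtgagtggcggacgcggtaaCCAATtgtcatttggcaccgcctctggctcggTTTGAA
Anln (chr9:22389180-22389356, minus strand): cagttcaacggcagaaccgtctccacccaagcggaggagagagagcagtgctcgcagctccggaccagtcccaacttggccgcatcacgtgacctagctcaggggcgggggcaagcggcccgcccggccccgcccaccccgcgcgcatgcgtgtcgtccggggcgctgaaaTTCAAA
Cenpf (chr1:189688079-189688236, minus strand): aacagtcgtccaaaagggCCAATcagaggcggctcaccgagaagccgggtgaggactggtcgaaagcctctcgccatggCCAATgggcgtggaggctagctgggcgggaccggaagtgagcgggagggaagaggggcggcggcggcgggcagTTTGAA

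Of the 19 mitosis genes with a promoter, 14 held a CHR match, against 20.2% of all 27025 genes in the promoter table, 1 of 9 replication genes and none of 9 G1 genes. A CHR match together with a CCAAT box was found in 13 of the 19 mitosis genes and in 8.97% of all genes. E2F matches were found in 4 of the 9 replication genes (Mcm3, Mcm5, Mcm6 and Mcm7), in 1 of the 19 mitosis genes (Cdk1) and in 2.60% of all genes. Cenpf, which fell in WT TAC, held a CHR match at +3 to +8 and 2 CCAAT boxes, as did several mitosis genes that rose. Ccnb1, with the largest rise, had 2 CCAAT boxes and no CHR match in this window, and Aurka's CHR match lies past the stretch shown. Matches of letters describe the window and not binding.

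In T497A, none of the 48 genes was called after TAC by edgeR (adjusted p 0.215 or more), against 0.114% of all tested genes. DESeq2 and limma-voom also called none, and 5 of the 48 had an unadjusted p under 0.05, beside 11.7% of all tested genes. These 5, a smaller share of the 48 than that of all tested genes, were Cdkn1a, Mcm6, Ccnd2, Pcna and Cdk2. Cdkn1a had 11.2, 10.9 and 5.70 CPM in T497A sham and 19.5, 14.3 and 18.3 CPM in T497A TAC, without overlap (0.91 ± 0.38, edgeR adjusted p 0.387). Mcm6 had 6.54, 8.88 and 9.06 CPM against 9.64, 14.8 and 11.1 CPM (0.54 ± 0.17, edgeR adjusted p 0.248), and Ccnd2 had 202, 182 and 227 CPM against 269, 328 and 244 CPM (0.46 ± 0.19, edgeR adjusted p 0.382). Pcna (-0.40 ± 0.12) and Cdk2 (-0.32 ± 0.14) lay below 0, and all 5 genes had the same sign as in WT. The Pcna value does not include the counts of Pcna-ps2, which were 81 and 88 in T497A TAC replicates 1 and 3, and is therefore uncertain. With no filter on low counts, Mcm6 and Pcna were called in T497A.

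The 24 mitosis genes had a median log2 fold change of 0.22 after TAC in T497A, from -0.27 to 0.76, with 19 above 0. Ccnb1 had 0.547, 0.555 and 0.968 CPM in T497A sham and 0.357, 0.725 and 0.649 CPM in T497A TAC (-0.27 ± 0.39). Cdk1 had 1.05, 1.78 and 1.32 CPM against 1.05, 1.93 and 1.34 CPM (0.06 ± 0.27), and Ube2c had 0.747, 1.05 and 1.58 CPM against 0.669, 1.86 and 1.62 CPM (0.29 ± 0.37). All 3 overlapped between sham and TAC. Cenpf had 110, 90.9 and 86.8 CPM in T497A sham and 36.7, 50.1 and 92.3 CPM in T497A TAC (-0.68 ± 0.42, edgeR adjusted p 0.6). In T497A TAC, 2 of the 3 Cenpf values lay below every T497A sham value and replicate 3 lay within the sham range.

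The T497A TAC libraries stood apart from each other in the mitosis genes. Replicate 1 was the lowest of the 3 in 22 of the 24 genes and the lowest of all 12 libraries in 14, and replicate 2 was the highest of the 3 in 23. Their summed levels of the 24 genes were 46.0, 101 and 73.2 CPM. The first is below and the second above the 53.2 to 77.4 CPM of T497A sham, and all 3 are below the 118 CPM of the lowest WT TAC library. Fibroblast markers summed to 2684, 3175 and 2605 CPM in the same 3 libraries, and macrophage markers to 269, 342 and 262 CPM. Both lists were highest in replicate 2, as the mitosis genes were. So were the endothelial, erythroid and lymphocyte lists and the sums of the G1 and replication genes. The cardiomyocyte list and the smooth muscle and pericyte list were lowest in replicate 2. The part of these lists in this was not tested. Top2a had 2.48, 10.1 and 6.95 CPM and Mki67 had 3.70, 19.5 and 11.6 CPM in the 3 libraries.

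**Figure D4:**
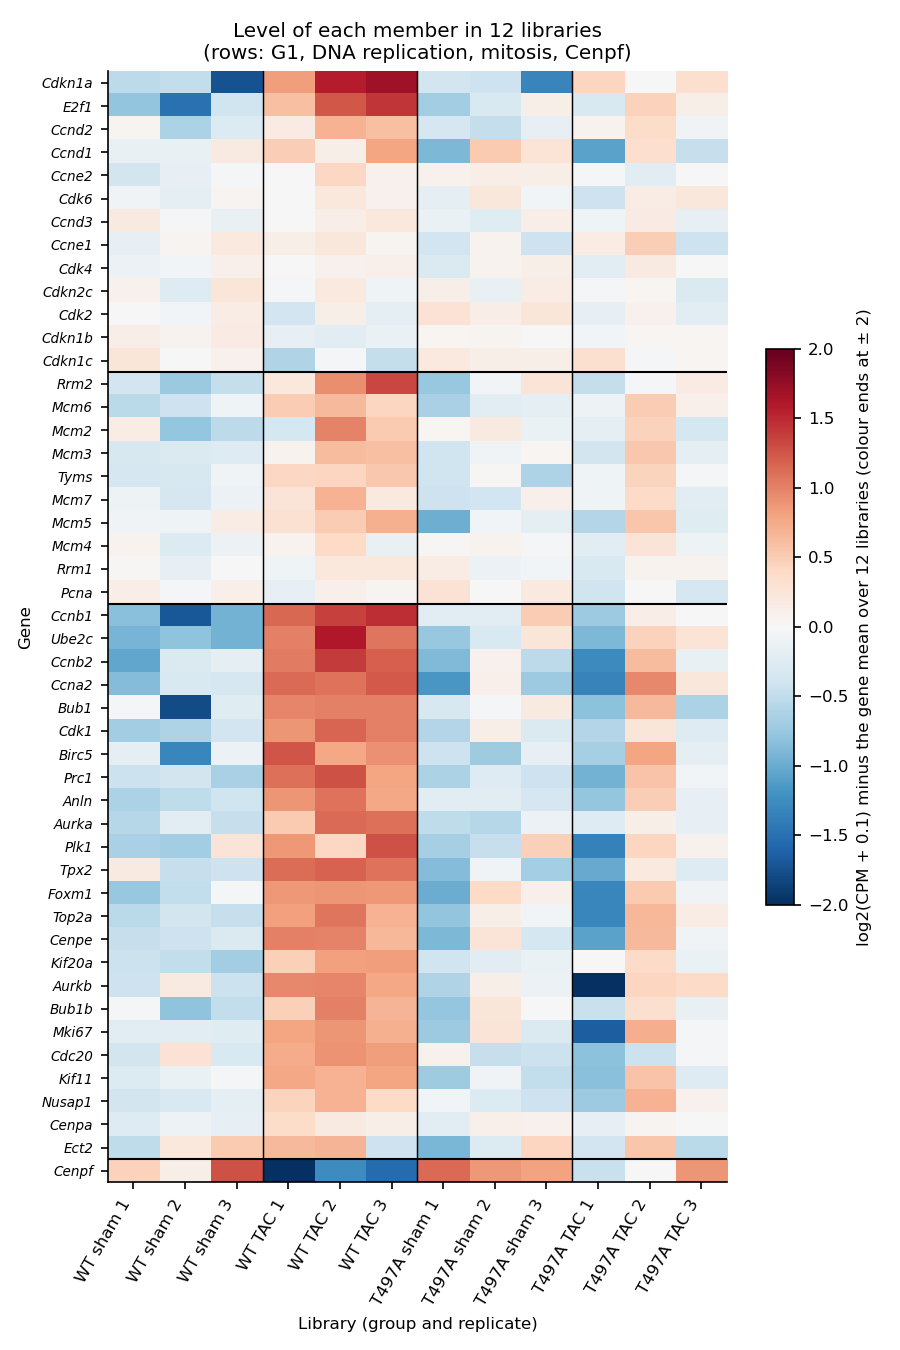
Each row is 1 of the 48 genes and each column a library. Colour gives log2(CPM + 0.1) minus the gene's mean over the 12 libraries, red above and blue below. Except for Ect2 in replicate 3, the mitosis block is red in the WT TAC libraries. It is mostly blue in T497A TAC replicate 1 and mostly red in replicate 2, and Cenpf is blue in WT TAC.

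The genotype by surgery interaction is the log2 fold change after TAC in T497A minus that in WT. By edgeR it was called for 1 of the 48 genes, beside 1.57% of all tested genes. That gene was Ccnb1 (-3.12 ± 0.57, edgeR adjusted p 0.0205), whose level rose after TAC in WT and lay within the sham range in 2 of 3 T497A TAC libraries. Its call was lost without WT sham replicate 3 (adjusted p 0.0548), T497A sham replicate 3 (0.055) or WT TAC replicate 3 (0.0613). All 24 mitosis genes and all 10 replication genes had an interaction below 0, with medians of -1.13 and -0.33. An unadjusted p under 0.05 was found for 19 of the 48 genes, against 16.8% of all tested genes. Next after Ccnb1 came Cdk1 (-1.61 ± 0.38, edgeR adjusted p 0.0547) and Ube2c (-2.01 ± 0.52, edgeR adjusted p 0.0709). The interaction of Cenpf was 1.67 ± 0.60 (edgeR adjusted p 0.211). DESeq2 gave an adjusted p for 46 of the 48 genes and called 6 (Anln, Ccnb1, Cdk1, E2f1, Rrm2 and Ube2c), each below 0. The share of all tested genes that DESeq2 called was not counted. Leaving out T497A TAC replicate 2 gave 5 calls, and leaving out T497A sham replicate 1 gave 2.

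After TAC, T497A had lower levels than WT of 8 mitosis genes and a higher level of Cenpf, 9 of the 48 in all, against 8.7% of all tested genes (4.64% higher and 4.06% lower). This comparison uses the same WT TAC libraries as the WT contrast above, and all 9 genes were also called there. Tpx2, a spindle assembly factor that activates Aurora A, had 5.44, 5.68 and 5.29 CPM in WT TAC and 1.16, 2.83 and 2.04 CPM in T497A TAC (2.73-fold lower, -1.45 ± 0.30, edgeR adjusted p 0.0115). Cdk1 was 2.37-fold lower in T497A TAC (-1.24 ± 0.26, edgeR adjusted p 0.0123) and Ccnb1 3.13-fold lower (-1.65 ± 0.38, edgeR adjusted p 0.0179). Cdc20, the activator of the anaphase-promoting complex, had 2.7, 3.03 and 2.89 CPM in WT TAC and 0.848, 1.14 and 1.53 CPM in T497A TAC (2.45-fold lower, edgeR adjusted p 0.0135). The highest T497A TAC library was below the lowest WT TAC library in each of these 4 genes.

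Aurora A kinase and the cytokinesis genes had the same order. Aurka had 1.88, 2.91 and 2.84 CPM in WT TAC and 1.05, 1.40 and 1.14 CPM in T497A TAC (2.13-fold lower, edgeR adjusted p 0.0201). Anln, the anillin of the cleavage furrow, had 5.65, 6.51 and 5.27 CPM in WT TAC and 1.74, 4.32 and 2.69 CPM in T497A TAC (1.99-fold lower, edgeR adjusted p 0.0287). Prc1, which bundles microtubules of the central spindle, was 2.17-fold lower (edgeR adjusted p 0.0365) and Ube2c 2.39-fold lower (edgeR adjusted p 0.0451). Cenpf was 3.76-fold higher in T497A TAC than in WT TAC (1.91 ± 0.44, edgeR adjusted p 0.0336), with all 3 T497A TAC libraries above all 3 WT TAC libraries. This Cenpf call was kept in 5 of the 12 fits that left out 1 library, and leaving out WT sham replicate 1, T497A sham replicate 2 or T497A sham replicate 3 was enough to lose it. Over the 24 mitosis genes the median difference was -1.01, all 24 were below 0, and in 19 the groups did not overlap, as for 13.6% of all tested genes on the lower side.

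Some markers of other cell types were also called between the genotypes after TAC, beside 8.7% of all tested genes (4.64% higher and 4.06% lower). Fibroblast markers summed to between 2605 and 3175 CPM in T497A TAC, below every WT TAC library, and 3 of the 10 were called lower. Macrophage markers summed to between 262 and 342 CPM in T497A TAC, overlapping WT TAC, and 1 of the 10 was called lower. Of the 10 cardiomyocyte markers 3 were called higher, with sums of 53393 to 56572 CPM in T497A TAC. Smooth muscle and pericyte markers summed to between 1600.03 and 1729 CPM, above every WT TAC library, with 1 of the 10 called higher. Endothelial markers summed to between 967 and 1162 CPM in T497A TAC, overlapping WT TAC, and 1 of the 10 was called lower. None of the tested erythroid and lymphocyte markers was called. The part of these markers in the genotype difference was not tested.

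The number called between genotypes after TAC depended on single libraries. It was 2 without T497A TAC replicate 1, 2 without T497A TAC replicate 3, 2 without WT TAC replicate 3, 5 without WT TAC replicate 2 and 16 without T497A TAC replicate 2. Fitted on the 6 TAC libraries alone, 6 genes were called, all lower in T497A, and Anln (adjusted p 0.0868), Prc1 (0.107), Ube2c (0.0797) and Cenpf (0.0929) were not among them. Of the 9 genes, Tpx2 kept its call in all 12 fits that left out 1 library, with adjusted p of at most 0.0437. Without 1 library the highest adjusted p was 0.0762 for Ccnb1 (WT TAC replicate 3), 0.0542 for Cdk1 (T497A TAC replicate 1), 0.0581 for Cdc20 (T497A TAC replicate 1), 0.0907 for Aurka (WT TAC replicate 3), 0.0971 for Anln (T497A TAC replicate 3), 0.106 for Prc1 (T497A TAC replicate 3), 0.142 for Ube2c (WT TAC replicate 2) and 0.112 for Cenpf (WT TAC replicate 3). No G1 or replication gene was called. Cdkn1a (-1.15 ± 0.37, edgeR adjusted p 0.0914), E2f1 (-1.06 ± 0.35, edgeR adjusted p 0.081) and Rrm2 (-1.0 ± 0.30, edgeR adjusted p 0.0572) had lower values in every T497A TAC library than in any WT TAC library.

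**Figure D5:**
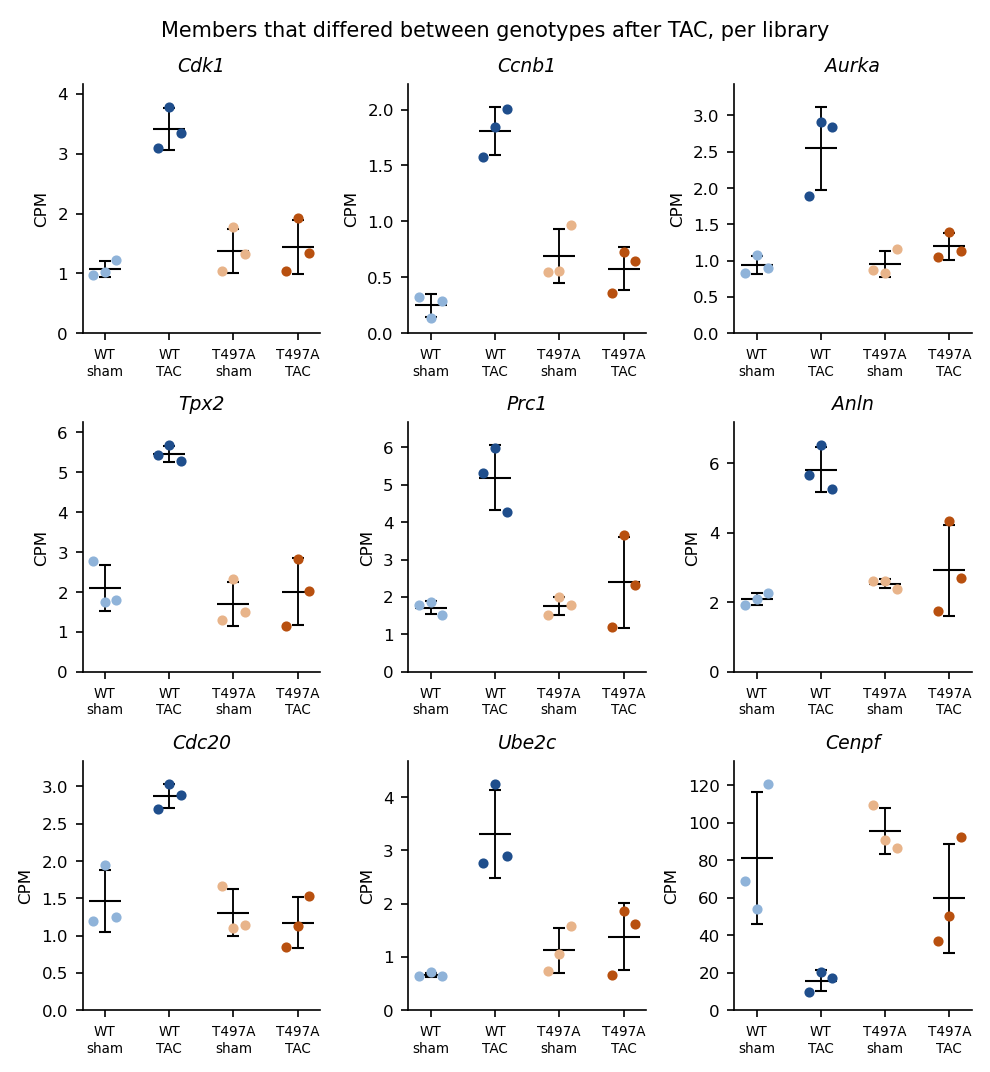
CPM per library is shown for the 9 genes called between T497A TAC and WT TAC, in 4 groups of 3 libraries, with the mean and SD in black and each axis starting at 0. In all 9 panels the WT TAC libraries are separate from the T497A TAC libraries, and in 8 panels they are the higher group.

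After sham, none of the 48 genes was called between T497A and WT by edgeR, DESeq2 or limma-voom, beside 0.0254% of all tested genes by edgeR, and 1 had an unadjusted p under 0.05, beside 3.03% of all tested genes. That was Ccnb1, which was higher in every T497A sham library than in any WT sham library (1.48 ± 0.42, unadjusted p 0.0035, edgeR adjusted p 1). The WT sham and T497A sham values of Ccnb1 rest on at most 14 and 44 counts per library. Averaged over the genotypes, TAC against sham was called for 23 of the 48 genes, 21 higher and 2 lower, against 22.4% of all tested genes (11.2% higher and 11.2% lower). All 23 were among the 30 called in WT, whose libraries they share. The 2 lower ones were Cenpf (-1.52, edgeR adjusted p 0.00806) and Cdkn1b (-0.16, edgeR adjusted p 0.0217), and the smallest adjusted p was that of Mcm6 (0.70, edgeR adjusted p 0.00114). The count was 14 without T497A TAC replicate 2.

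Other genes of the cell cycle gave a wider view of the same phases. Of 139 further genes, 137 were tested, and 46 rose and 7 fell in WT TAC, with a median log2 fold change of 0.62. By phase, 34 of 69 mitosis genes rose and 2 fell, 6 of 43 replication genes rose and 2 fell, and 6 of 25 G1 genes rose and 3 fell. The share called among the replication genes, 18.6%, was under the 25.0% over all tested genes. The 5 largest rises among the called genes were all in the mitosis list. Cdca5, sororin, which holds sister chromatids together, rose 5.96-fold (2.57 ± 0.74, edgeR adjusted p 0.0215), from a mean of 0.116 CPM in WT sham to 0.700 CPM in WT TAC. Fam83d, which helps to align chromosomes, rose 4.92-fold, and Iqgap3, a scaffold of dividing cells, rose 4.33-fold. The kinetochore gene Cenpi rose 4.21-fold, and the spindle gene Ckap2l 4.11-fold.

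Among the called genes, the 5 largest falls were smaller in size than these rises. Dut, which breaks down dUTP so that uracil does not enter DNA, fell 1.71-fold (-0.78 ± 0.10, edgeR adjusted p 0.000134), from at least 16.2 CPM in each WT sham library to at most 11.1 CPM in each WT TAC library. Sgo2a, a shugoshin that protects centromeric cohesin, fell 1.48-fold, and Ccnh, the cyclin of the kinase that activates CDKs, fell 1.42-fold. Lin52, a subunit of the MuvB complex that binds the CHR, fell 1.39-fold, and Rbl2, the pocket protein p130 of that complex in resting cells, fell 1.38-fold. In T497A TAC none of the 137 was called by edgeR, beside 0.114% of all tested genes. In the interaction 1 was called, Dut (0.65 ± 0.14, edgeR adjusted p 0.0432). That was 0.73% of the 137, under the 1.57% of all tested genes. Between genotypes after TAC, 19 of the 137 (13.9%) were called, 5 higher and 14 lower in T497A, beside 8.7% of all tested genes. The count of 53 in WT TAC was 35 without WT sham replicate 1, 35 without WT sham replicate 2, 33 without WT sham replicate 3 and 35 without WT TAC replicate 2.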

How the data were processed

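RNA of the left ventricle was sequenced single-end in 12 libraries, 3 in each of 4 groups taken from the sample labels. The deposited table holds raw whole-number counts per gene. The submitters' processing notes name STAR 2.7.3a, Trim Galore 0.6.4, Subread 1.6.3 with featureCounts, limma 3.50.3 and mm10. How the authors set strand, multi-mapped reads and annotation is not given in the sources used here, so counts of genes with overlapping or near-identical partners are uncertain.

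In R 4.3.3, edgeR 4.0.16 was used on genes passing filterByExpr (minimum count 10), with TMM factors, robust glmQLFit and glmQLFTest. All 12 libraries entered 1 model, and p-values were adjusted by Benjamini and Hochberg's method over 15764 genes, with a threshold of 0.05. The SE was taken as |log2 fold change| / sqrt(F). The script was tested on simulated data. Every pair of replicates differed by more than counting noise (chi-square per degree of freedom 23.1 to 63.3). Alternatives were RLE size factors, mitochondrial genes left out, DESeq2 1.42.0, limma-voom (limma 3.58.1), no filter, only the 6 libraries compared, and each library left out. Exon lengths, positions and overlaps came from a GENCODE annotation of GRCm38.

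The members and lists were chosen with earlier results of these data known. Values in every library are given for Cenpf, for up to 6 called genes per phase with the largest change in WT TAC, for up to 6 genes called in each other comparison, and for uncalled relatives. Of the further genes, the 5 largest rises and falls are named.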

Additional observations from a re-analysis of the deposited data

Results flagged for a closer look

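By the interaction test over all 12 libraries, the TAC effect on Ccnb1 differed between the genotypes. The log2 fold change after TAC was lower in T497A than in WT, with a difference of -3.1241 on the log2 scale (SE 0.57, edgeR adjusted p 0.0205). It was the 1 interaction called among the 48 genes, beside 1.57% of all tested genes. The call was lost without WT sham replicate 3 (edgeR adjusted p 0.0548), T497A sham replicate 3 (0.055) or WT TAC replicate 3 (0.0613). Ccnb1 was higher in 3 of 3 WT TAC libraries than in any WT sham library. It was also higher in 3 of 3 T497A sham libraries than in any WT sham library, as were 667 of all 15764 tested genes. The interaction is the genotype difference after TAC (-1.65) minus that after sham (1.48), both on the log2 scale. Ccnb1 was not called between the genotypes after sham, which does not show that a difference there is absent. Values in WT sham were 6 to 14 counts per library.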

How the results depend on the processing

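No paired analysis was possible because every title carries the same replicate number, and the numbers used here only name libraries in accession order. RLE size factors and leaving out mitochondrial genes gave the same counts of members in every comparison. DESeq2 called 6 members in the interaction and 16 between genotypes after TAC. Without the filter on low counts, 2 members were called in T497A TAC, 8 in the interaction and 16 between genotypes after TAC. The cause was not tested. The share of all tested genes called was counted for the main edgeR fit only. Whether changes in the number called under the alternatives are particular to the members was not tested. Leaving out 1 library in turn, the members called ranged from 17 to 33 in WT TAC, from 0 to 5 in the interaction, from 2 to 16 between genotypes after TAC and from 14 to 29 for TAC averaged over genotypes. The further cell cycle genes called in WT TAC ranged from 33 to 57. Values near 0 changed sign. In WT TAC, Cdkn2c (-0.01) was 0.012 with limma-voom and ranged from -0.14 to 0.10 with 1 library left out, and Pcna (-0.07) ranged from -0.12 to 0.013. In T497A TAC, Ccnb1 ranged from -0.46 to 0.061 and Cdk1 from -0.20 to 0.28. Depth limits the genes with the fewest counts, such as Ccnb1 in WT sham.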

Other observations

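The order of the 48 genes by level per kb of exon changed with TAC in WT beyond Cenpf. Ccnd2 was first in both groups, at 22.7 CPM per kb in WT sham and 38.5 CPM per kb in WT TAC. Cdkn1b went from rank 2 to rank 5. Adding the counts of Pcna-ps2 to those of Pcna gave 15.6, 18.5 and 16.5 CPM in T497A TAC, 22.6, 18.3 and 21.1 CPM in T497A sham, and 18.2, 19.8 and 19.1 CPM in WT TAC. The pseudogene held 10.9% to 12.3% of the summed counts in WT TAC replicate 1 and T497A TAC replicates 1 and 3, and at most 0.915% in the other 9 libraries.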
